A study of Mus musculus with 2 samples.

Results

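MicroRNA genes that lie in imprinted domains were examined in mouse midbrain: Mir335 in Mest, Mir483 in Igf2, Mir675 in H19, and Mir296 with Mir298 beside Gnas. They were chosen by gene symbol and matched through the gene identifier to GENCODE. They make up 5 of the 1973 miRNA loci in the deposited counts, of which 1227 had no sense read in either library. Midbrain RNA came from embryos of the B6NCrl mouse strain at embryonic day 14.5, and RNA under 30 nt was sequenced. The labels name no treatment and no genetic change. There was 1 group with 2 biological replicates, each a single midbrain, collected on different days, so the series holds no contrast between conditions. Both carry the same donor identifier and the same pup and pregnancy numbers, and the sex is given as mixed, so how far the spread between them measures variation between animals is not known.

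Imprinted genes are expressed mainly from the chromosome of one parent, and many of them act on growth before birth and on the brain. Mest, a hydrolase-like gene of embryonic mesoderm and brain, and Igf2, a fetal growth factor, are expressed from the paternal chromosome, and H19, a long noncoding RNA next to Igf2, from the maternal one. Gnas encodes the stimulatory G protein subunit, and the antisense transcript Nespas of the same domain is paternal. A miRNA is cut from a hairpin in its host transcript, and bases 2 to 8 of the mature strand, the seed, pair with target mRNAs. The counts hold no allele information, so parental origin was not measured here.

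All 5 hairpins and their 10 mature arms were found in RefSeq (build GRCm38.p6). The mature sequences are shown 5′ to 3′ with the seed in capitals, because the deposited counts add both arms of a hairpin together and these are the molecules that a read could stand for.
mmu-miR-335-5p: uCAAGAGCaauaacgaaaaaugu
mmu-miR-335-3p: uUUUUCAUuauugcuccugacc
mmu-miR-296-5p: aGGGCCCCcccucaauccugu
mmu-miR-296-3p: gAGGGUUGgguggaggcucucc
mmu-miR-298-5p: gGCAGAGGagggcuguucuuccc
mmu-miR-298-3p: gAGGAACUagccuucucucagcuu
mmu-miR-483-5p: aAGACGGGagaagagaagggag
mmu-miR-483-3p: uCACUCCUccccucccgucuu
mmu-miR-675-5p: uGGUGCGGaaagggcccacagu
mmu-miR-675-3p: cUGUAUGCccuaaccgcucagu
The arms are 21 to 24 nt long, so levels of different loci are given per read without division by length. The 10 seeds are all different, and none of them occurs at another locus among 1738 mature mouse sequences in RefSeq, of which 68.0% have a seed held by no other locus.

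The hairpins are also distinct as sequences. No stretch of 20 nt, and none of 16 nt, from any of the 5 hairpins was found on either strand of another of the 1894 hairpins taken from GENCODE M21. Among 141767 GENCODE transcripts, the mature arms were found whole in their own hairpin and, for both arms of Mir675, in 3 transcripts of H19. Reads mapping to several places were 36.2% of replicate 1 and 36.9% of replicate 2 and were not assigned to loci, and this search found no annotated copy through which the 5 loci would lose reads in that way. Copies elsewhere in the genome were not searched.

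The loci differ in their place relative to the host gene, in coordinates of mm10. Mir335 (ENSMUSG00000065501.1) lies at chr6:30741299-30741396 on the plus strand, in an intron in 7 of 11 Mest transcripts. Mir483 (ENSMUSG00000070140.1) lies at chr7:142654924-142654996 on the minus strand, in an intron in 7 of 9 Igf2 transcripts and in an intron of the overlapping gene Gm49394. Mir675 (ENSMUSG00000076275.1) lies at chr7:142577064-142577147 on the minus strand and overlaps an exon in 3 of 7 H19 transcripts. Between Mir483 and Mir675 there are 77776 nt. Mir296 (ENSMUSG00000065521.1) at chr2:174267047-174267125 and Mir298 (ENSMUSG00000065410.1) at chr2:174267504-174267585, both on the minus strand, overlap no other gene on their strand in GENCODE M21. They lie 14111 and 13651 nt beyond the annotated 3′ end of Nespas, on the same strand as Nespas and on the strand opposite to Gnas.

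**Figure D1:**
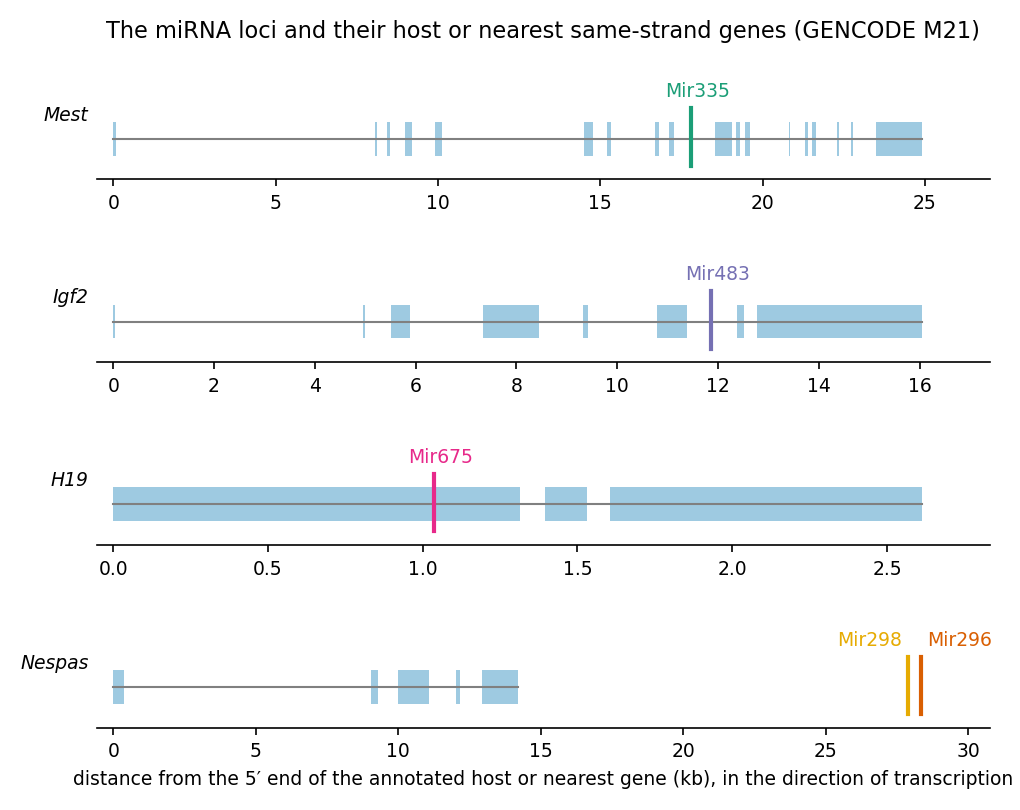
Position of each miRNA locus (coloured lines) along its host gene or, for Mir298 and Mir296, the nearest same-strand gene, as distance from the 5′ end in kb; blue boxes are exons of all annotated transcripts. Mir335 and Mir483 lie in introns, Mir675 overlaps an exon of H19, and Mir298 and Mir296 lie 13651 and 14111 nt past the end of Nespas.

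The libraries held 7302633 and 3966727 sense reads at miRNA loci in replicates 1 and 2. CPM are counts scaled by these totals, so that 1 read was worth 0.137 CPM in replicate 1 and 0.252 CPM in replicate 2. Detection required 10 or more reads in both replicates, which 397 of 1973 loci reached. Of the marker lists, the neural list had 8 of 10 counted loci detected, led by Mir149 and Mir137 at 17513 and 12716 CPM. Of its Mir9 loci, Mir9-3 had 3752 and 2212 reads and Mir9-2 had 25 and 3, and the 3 Mir124a loci each had under 100 reads in both libraries. These are miRNAs with several genomic copies, whose shared reads map to several places and are in no count, so the values are no measure of the level of miR-9 or miR-124. Mir9-1 was not analysed here.

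The 5 loci ranged from Mir335, among the loci with the most assigned reads, to Mir675, near the level of a few reads. Of the 5, 4 were detected. Their summed share of the sense reads was 4.80% in replicate 1 and 5.37% in replicate 2, averaging 5.09% ± 0.409 (SD, n = 2). Mir335 alone made up 77.0% of the reads at the 5 loci in replicate 1 and 81.7% in replicate 2. The Gnas pair took 1.03% ± 0.0743 of the sense reads and the Igf2 and H19 pair 0.00902% ± 0.00755 (SD, n = 2). In both libraries Mest held the largest share of the 3 domains and Igf2 with H19 the smallest.

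**Figure D2:**
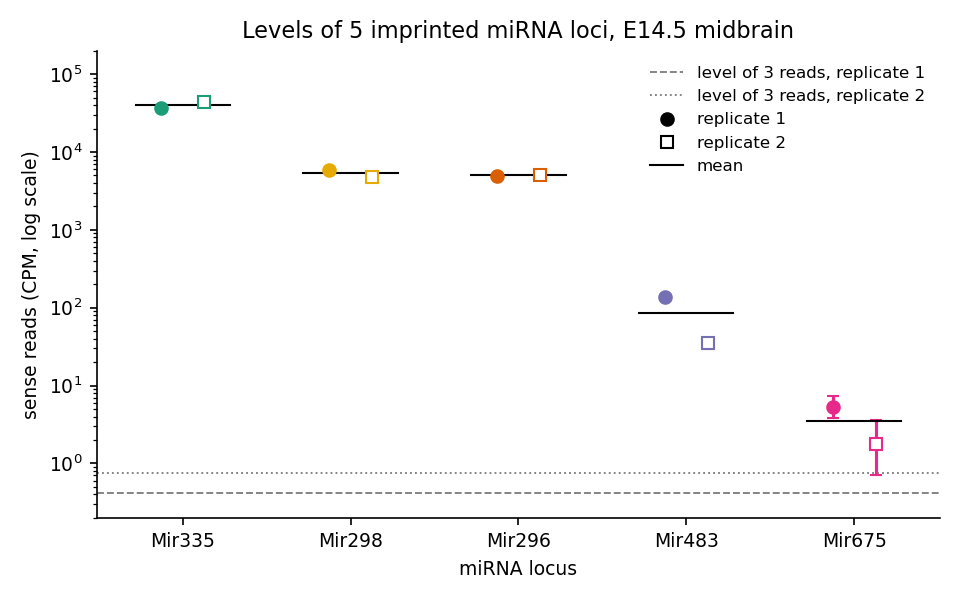
Sense reads in CPM (log axis) at each of the 5 loci, with 1 point per library, exact Poisson 95% intervals for counting error, the mean as a black line, and the level of 3 reads in each library as grey lines. Mir335, Mir298 and Mir296 lie close together between libraries, while Mir483 and Mir675 are lower in replicate 2 than in replicate 1.

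Mir335 is cut from the Mest transcript and is studied in human breast cancer as a suppressor of metastasis. It had 269799 sense reads in replicate 1 and 174087 in replicate 2, or 36945 and 43887 CPM. It ranked in place 4 in replicate 1 and in place 3 in replicate 2, and its mean of 40416 ± 4908 CPM (SD, n = 2) ranked in place 3 of all loci. All places given here are among reads assigned to a single locus; miRNAs with several copies can lose reads that map to several places, so the place of miR-335 among all miRNAs of the tissue was not measured. Mirlet7g stood above it by 15697 CPM, more than the SD of either locus. The loci next below, Mir100 and Mir130a, were 3059 and 3439 CPM lower on average, which is less than the SD of Mir335. Among 159 detected loci in introns of protein-coding genes, whose median was 69.1 CPM, 1 stood above Mir335, namely Mirlet7g in Wdr82.

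The higher level of Mir335 in replicate 2 was 1.19-fold, with a counting interval of 1.18 to 1.20. On the log2 scale the ratio of replicate 2 to replicate 1 was 0.25, against a median of 0.09 over the 397 detected loci, and 263 of these had a lower ratio. The counting interval is narrow at this depth, and under this scaling the libraries differed beyond it. It takes the scaling as exact, and the log2 ratio was 0.16 with TMM and 0.18 with DESeq2 size factors, both outside it. Mir335 did not stand at an extreme of the detected loci. The reads were on the annotated strand, with 12 reads on the opposite strand in replicate 1 and 3 in replicate 2.

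Mir296 and Mir298 lie 378 nt apart, and their hairpins are 52.2% identical over a global alignment of 90 columns, with no shared stretch of 16 nt. miR-296 is studied in vessel growth in human endothelial cells, and miR-298 as a regulator of the beta-secretase Bace1 in mouse neuronal cells. Their hairpins are shown 5′ to 3′ with both mature arms in capitals, as the pair whose levels are compared next.
Mir298 hairpin: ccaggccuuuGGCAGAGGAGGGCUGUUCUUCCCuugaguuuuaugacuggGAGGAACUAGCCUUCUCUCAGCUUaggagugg
Mir296 hairpin: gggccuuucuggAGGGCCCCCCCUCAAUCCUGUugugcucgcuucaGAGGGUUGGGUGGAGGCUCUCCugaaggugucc
Mir298 had 43542 reads (5963 CPM) in replicate 1 and 18754 reads (4728 CPM) in replicate 2, and Mir296 had 35867 reads (4912 CPM) and 20211 reads (5095 CPM). Mir298 was the higher of the pair in replicate 1, whereas Mir296 was the higher in replicate 2. Their means were 5345 ± 873 CPM for Mir298 and 5003 ± 130 CPM for Mir296 (SD, n = 2), in places 38 and 43 of all loci, and the difference between them was smaller than the SD of Mir298.

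The ratio of Mir296 to Mir298 was 0.824 in replicate 1 (exact 95% counting interval 0.812 to 0.835) and 1.08 in replicate 2 (1.06 to 1.10), a mean of 0.951 ± 0.180 (SD, n = 2). This ratio needs no scaling between libraries. The intervals lie on opposite sides of 1, so the order of the pair within a library was resolved beyond counting error and was not the same in both libraries. Among 65 pairs of detected neighbours on one strand with a gap of at most 1 kb, the order differed between the libraries in 2. They were this pair and Mir194-2 with Mir192, at 1.07- and 1.08-fold between their mean CPM. Order changes readily only between loci of near equal level, and 8 of the 65 pairs lay within 1.5-fold. The count of 2 thus says little beyond how close these means are.

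In assigned reads, Mir296 and Mir298 stood nearer to each other than most of these close neighbours did. Pairs that hold a miRNA with several copies can lose its shared reads, which are in no count. How far this widened the folds of other pairs was not tested. The 65 pairs had a median fold of 6.29 between the mean CPM of their members, 8 lay within 1.5-fold, and 27 differed by more than 10-fold. Mir296 and Mir298 differed 1.07-fold, the second smallest fold after Mir93 and Mir106b at 1.03-fold. Their change between libraries was less alike than that of most pairs: the log2 ratios of replicate 2 to replicate 1 differed by 0.39, against a median of 0.27 over the pairs, and 45 of the 65 pairs differed by less. With no other group in the series, these places describe the 2 libraries and carry no test.

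**Figure D3:**
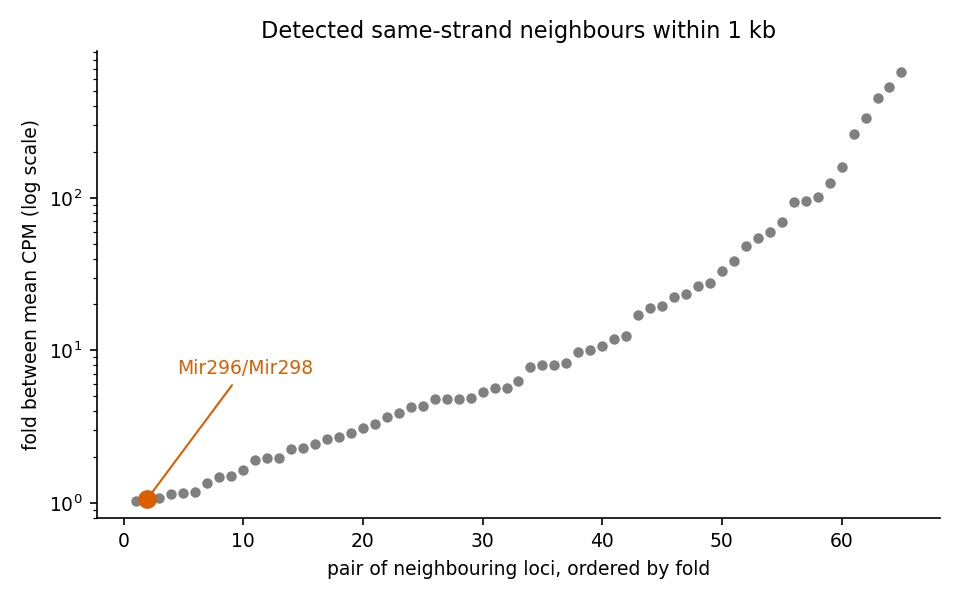
Fold between the mean CPM of the members of each of 65 neighbouring pairs (log axis), ordered from the smallest, for detected loci on one strand with a gap of at most 1 kb. The pair Mir296/Mir298, in orange, is second at 1.07-fold, and the median pair is at 6.29-fold. Reads that map to several places are in no count.

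Other abundant loci stood at the level of the Gnas pair. Next to Mir298 in mean CPM were Mir140 and Mir382 above and Mir15a and Mir369 below, at 5499, 5506, 5330 and 5232 CPM, all within the larger SD of the 2 loci compared. Next to Mir296 were Mir324 and Mir151 above, at 5066 and 5159 CPM, and Mir21a and Mir872 below, at 4865 and 4577 CPM. Mir151 and Mir872 differed from Mir296 by more than the larger SD. Of 107 detected loci outside other genes, whose median was 205 CPM, 6 stood above Mir298 and 7 above Mir296. No read of either locus was on the opposite strand.

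The Igf2 and H19 loci were far less abundant, and both were lower in replicate 2. Mir483, from an intron of Igf2 and known for its high level in human Wilms tumours, had 1009 reads in replicate 1 and 139 in replicate 2. These are 138 CPM in replicate 1 (exact Poisson 95% interval 130 to 147) and 35.0 CPM in replicate 2 (29.5 to 41.4), with a mean of 86.6 ± 72.9 CPM (SD, n = 2) in place 218 of all loci. Its place was 195 in replicate 1 and 260 in replicate 2. The mean rests on replicate 1: the level without it is 35.0 CPM.

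Mir675, cut from an exon of H19 and known to restrain growth of the mouse placenta, had 39 reads in replicate 1 and 7 in replicate 2, and so was not detected under the rule of 10 reads in each. The levels were 5.34 CPM (3.80 to 7.30) and 1.76 CPM (0.709 to 3.64), with a mean of 3.55 ± 2.53 CPM (SD, n = 2) in place 360. A single read in replicate 1 was on the opposite strand. The level of 3 reads, which a count of 0 allows, is 0.411 CPM in replicate 1 and 0.756 CPM in replicate 2, and the interval of replicate 2 reaches it. Without replicate 1 the level is 1.76 CPM.

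Mir483 exceeded Mir675 in both libraries. The ratio was 25.9 in replicate 1 (exact 95% counting interval 18.8 to 36.6) and 19.9 in replicate 2 (9.39 to 50.3), a mean of 22.9 ± 4.25 (SD, n = 2), and the intervals overlap. A difference of this ratio between the libraries was thus not detectable at this depth. Next to Mir483 in mean CPM were Mir18b and Mir145a above, at 89.2 and 90.7 CPM, and Mir30c-1 and Mir3059 below, at 83.3 and 82.8 CPM, all within the SD of Mir483.

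Mir483 was 3.94-fold higher in replicate 1 (3.30 to 4.74), a log2 ratio of replicate 2 to replicate 1 of -1.98. Mir675 was 3.03-fold higher in replicate 1 (1.34 to 8.02), a log2 ratio of -1.60. Of the 4 detected loci, 1 was lower in replicate 2 by more than 2-fold, against 3.02% of the 397 detected loci (12 loci). The same locus was the only 1 of the 4 past 1.5-fold in either direction, where 16.6% of the detected loci were (66 loci). Among the 274 loci with 100 or more reads in both libraries, which include Mir483, these shares were 1.82% and 8.76%. A total of 2 detected loci, Mir199b and Mir223, had a lower ratio than Mir483, and none of the 274 loci that reached 100 reads in both libraries did. That minimum removes loci with few reads in replicate 2, here Mir223 with 97 and Mir199b with 19. The place of Mir483 at the extreme of the 274 is therefore partly set by the minimum. The comparison is between 2 libraries of 1 group and has no replicate check of its own.

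In contrast, the log2 ratios of Mir335, Mir296 and Mir298 were 0.25, 0.05 and -0.33. The ratio of Mir296 changed sign with the scaling, to -0.036 with TMM and -0.013 with DESeq2 size factors, so no direction is given for it. Mir298 was 1.26-fold higher in replicate 1 (1.24 to 1.28), and 63 of 397 detected loci had a lower ratio. The 5 loci thus did not shift together between the libraries, and the spread over the 5 was set by Mir483 and Mir675.

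**Figure D4:**
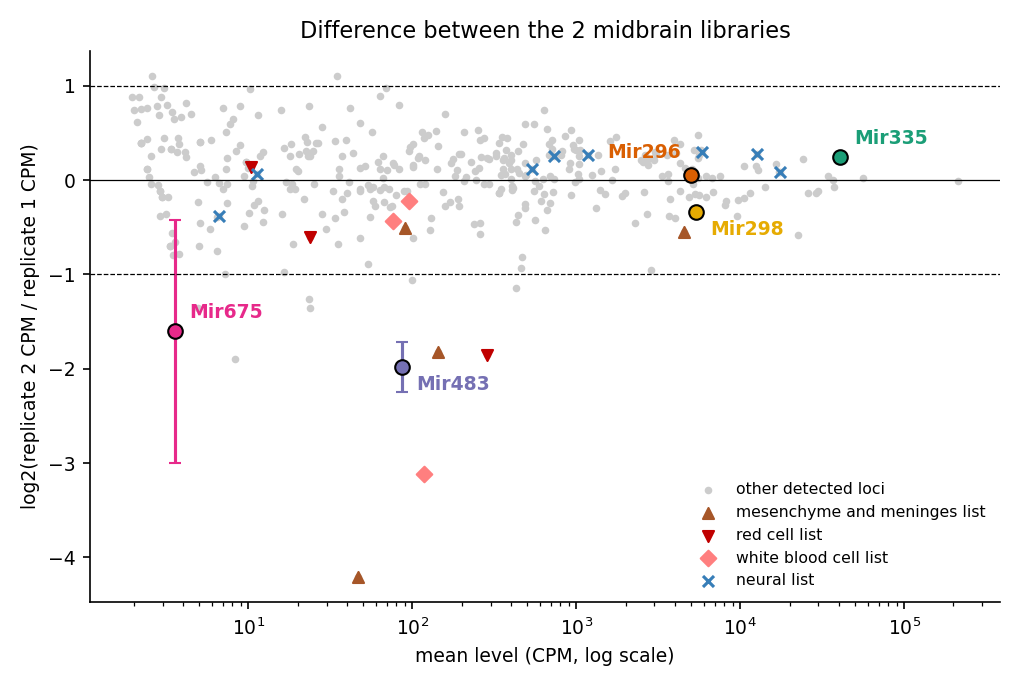
Log2 ratio of replicate 2 to replicate 1 against mean CPM (log axis) for the 397 detected loci (grey), the 5 imprinted loci with exact 95% counting intervals, and detected loci of 4 marker lists; dashed lines mark 2-fold. Mir483 at -1.98 and Mir675 at -1.60 lie below the 2-fold line with Mir214, Mir451a, Mir223 and Mir199b, while Mir335, Mir296 and Mir298 lie between -0.33 and 0.25.

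Most detected loci of the mesenchyme and blood lists were, like Mir483, lower in replicate 2, with the red cell locus Mir486 as the exception. A lower value in replicate 2 was not particular to these lists. Of all 397 detected loci, 46.9% had a log2 ratio below the 0.05 of Mir296, which takes in some loci slightly higher in replicate 2. Below the -0.33 of Mir298 were 15.9%, so the share lower in replicate 2 lies between 15.9% and 46.9%. Lower past 1.5-fold were 7.56%, and past 2-fold 3.02%. The 5 loci nearest to Mir483 in log2 ratio were taken where both libraries held 100 or more reads. They were Mir451a of red cells at -1.86, Mir214 of mesenchyme at -1.82, Mir449a of ciliated cells at -1.15, Mir702 at -1.06 and Mir181b-2 at -0.95. Loci with fewer reads could not enter, such as Mir6236 at -1.90 with 96 and 14 reads. In the mesenchyme and meninges list, 4 of 6 loci were detected, all 4 were lower in replicate 2 and 2 of them past 2-fold. None of its loci was at 0 in both libraries. Its summed level was 5850 CPM in replicate 1 and 3838 CPM in replicate 2, carried by Mir143 at 5423 and 3694 CPM. Mir214 had 1636 and 251 reads, and Mir199b 648 and 19 reads. The part of such cells in the lower count of Mir483 was not tested, and in bulk tissue fewer cells of a type and less RNA per cell cannot be told apart.

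The summed level was 486 CPM in replicate 1 and 153 CPM in replicate 2 for the red cell list, whose 3 loci were all detected and of which 2 were lower in replicate 2. Mir451a carried that sum with 447 and 123 CPM, while Mir486 had 9.86 and 10.8 CPM. In the white blood cell list the sum was 403 CPM in replicate 1 and 178 CPM in replicate 2, and all 3 counted loci were detected and lower in replicate 2. Mir223 had 212 and 24.5 CPM, whereas Mir155 differed 1.17-fold. The choroid plexus and ciliated cell list had 2037 CPM in replicate 1 and 1502 CPM in replicate 2, with 4 of its 5 detected loci lower in replicate 2 and Mir211 higher. The endothelial Mir126a had 27037 CPM in replicate 1 and 18011 CPM in replicate 2; its 71446 reads in replicate 2 are the same number as those of Mir149 in the deposited counts. The neural list ran the other way in its sum, with 36068 CPM in replicate 1 and 41083 CPM in replicate 2, carried mainly by Mir149, Mir137 and Mir153. Of its 8 detected loci, 1 was lower in replicate 2. Their median log2 ratio was 0.18, against 0.09 over all detected loci. Its undetected loci Mir9-2 and Mir124a-3 were also lower in replicate 2, at -2.18 and -0.62, on few reads. The part of these lists in the counts of the imprinted loci was likewise not tested.

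Among other imprinted miRNAs, the Dlk1-Dio3 domain on chromosome 12 held 59 of the 1973 loci, and 9 of these had no sense read in either library. Together the 59 took 7.70% ± 1.01 of the sense reads (SD, n = 2), and 46 were detected. The 5 loci described here and this domain together took 11.8% of the sense reads in replicate 1 and 13.8% in replicate 2, and Mir335 alone 31.4% and 31.8% of that sum. The mean of Mir335 was higher than that of Mir487b, the highest Dlk1-Dio3 locus, at 24176 ± 2584 CPM, a gap of more than the SD of either. The log2 ratio of replicate 2 to replicate 1 was 0.22 at Mir487b and 0.25 at Mir335, and the 46 detected loci had a median of 0.27 and a lowest value of -0.40. None of the 46 was as low as Mir483 in that ratio, and 0 of them were lower in replicate 2 by more than 1.5-fold, against 7.56% of all detected loci (30 loci). In the other direction 3 of the 46 were past 1.5-fold, against 9.07% (36 loci). This difference was not tested.

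The Sfmbt2 gene, imprinted in the placenta, held 107 loci, of which 10 were detected (9.35%) and 78 had no sense read in either library. Over all 1973 loci, 20.1% were detected. The highest Sfmbt2 locus was Mir467d at 1663 ± 3.06 CPM. Of further loci in or near imprinted domains, only Mir184 and the Mir344 loci were listed, and they were lower than Mir467d. Mir184, near Rasgrf1 on chromosome 9, had 51 and 54 reads (10.3 ± 4.69 CPM), below Mir483 and above Mir675. Of 13 Mir344 loci on chromosome 7, 6 were detected, led by Mir344f with 154 and 100 reads (23.1 ± 2.91 CPM), and 5 had no read. In assigned reads, Mir335, Mir296 and Mir298 were each above all the Sfmbt2, Mir184 and Mir344 loci in both libraries. Some Dlk1-Dio3 loci, such as Mir487b at 24176 CPM, stood above Mir296 and Mir298. miRNAs with several copies can lose reads that map to several places. Low counts at such loci are therefore no measure of the level of the miRNA.

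**Figure D5:**
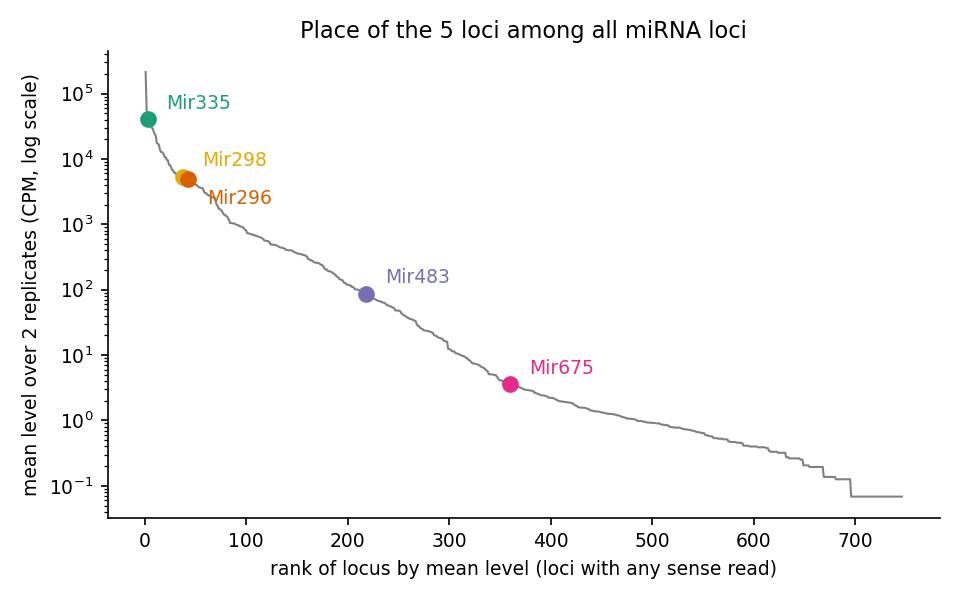
Mean CPM over the 2 replicates (log axis) against rank among assigned reads for all loci with any sense read (grey line), with the 5 imprinted loci marked. Mir335 is in place 3, Mir298 and Mir296 in places 38 and 43, Mir483 in place 218 and Mir675 in place 360.

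The total fold energy of the hairpins did not follow the order of the levels. Minimum free energies predicted with RNAfold were -44.3 kcal/mol for Mir335, -43.2 for Mir296, -42.7 for Mir298, -33.8 for Mir483 and -56.0 for Mir675, against a median of -36.5 for the 397 detected loci. These energies are not divided by length, and the Mir335 hairpin has 98 nt against a median of 84. Per nt they were -0.452 for Mir335, -0.463 for Mir483, -0.521 for Mir298, -0.547 for Mir296 and -0.667 for Mir675. The median per nt was -0.434, and Mir335 was the weakest of the 5 on this scale. Per nt, lower level went with lower energy except at Mir483. The least abundant locus, Mir675, had the lowest energy of the 5 on both scales, and 3.02% of the detected hairpins were lower in total energy. Its GC content was 63.1%, that of Mir296 63.3%, of Mir483 58.9%, of Mir298 53.7% and of Mir335 42.9%, against a median of 50.6%. Mir335, the most abundant, had the lowest GC content of the 5, and 19.6% of the detected hairpins were below it. These 5 points are a description and carry no test.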

How the data were processed

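MicroRNA reads of 2 midbrain libraries (1 group, embryonic day 14.5) were analysed. The authors deposited raw read counts per miRNA gene for both strands, the annotated strand and the opposite strand, on assembly mm10 with annotation M4, per the text deposited with the libraries; the aligner and counter were not given in the sources used here. Reads mapping to several places were tallied apart. Total reads were 17853282 and 9565117, of which 41.7% and 42.3% lay at miRNA loci. Reads outside miRNA genes (3.10% and 2.17%) and unmapped reads (19.0% and 18.5%) are part of these total reads but stayed out of the totals used for CPM.

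From these counts CPM were computed on the total of sense reads, as means and SDs over 2 replicates. Levels have exact Poisson 95% intervals, and ratios exact intervals from the binomial of the summed count. Intervals cover counting error only and treat each read as an independent draw. PCR copies are not independent molecules, so the intervals can be too narrow even for counting error. Floors use 3 reads. Annotation and hairpins came from GENCODE M21 and mature sequences from RefSeq. A single group allows no test of conditions, so folds past 1.5 and 2 were counted over all detected loci. The interval code was tested on simulated data. Software was R 4.3.3, edgeR 4.0.16 (TMM), DESeq2 1.42.0, RNAfold 2.7.2, SciPy 1.17.1 and Biopython 1.88.

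The miRNAs, lists and tests were chosen with earlier results of these data known. Named loci were the 5 miRNAs, the 2 loci next above and below each detected one in mean CPM, the 5 nearest to Mir483 in ratio, seed partners, marker lists, Mir184 and the Mir344 loci; others named were chosen after their values were seen. Alternatives were TMM, DESeq2 size factors, both strands, a total without the most abundant locus, log2(CPM + 1), minimums of 3 and 100 reads, a stretch of 16 nt, and each replicate left out.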

Additional observations from a re-analysis of the deposited data

Results flagged for a closer look

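Reads on the strand opposite to Mir335 were the one signal outside the sense counts of the 5 loci that exceeded 3 reads, the level that a count of 0 allows. Replicate 1 held 12 such reads, beside 269799 sense reads, so that 99.996% of the reads were sense (exact Clopper-Pearson 95% interval 99.992 to 99.998). Replicate 2 held 3. The series has no control sample to set these against, and their origin was not tested.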

How the results depend on the processing

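With 2 replicates and a single group, no test backs these values, and 59 of 73 recomputed values stayed within the replicate SD or the counting interval, or within 1.5 times for counts. Another 16 values left a replicate out of a mean of 2, which by construction stays within the SD and says nothing of stability. Some of the 73 could hardly move either. These are the places under other read minimums and the ratio of Mir296 to Mir298 with both strands counted. The means of Mir483 and Mir675, whose SDs are large, are further cases. The count of 59 is therefore no measure of stability. A total without Mir99a, the most abundant locus, raised the means to 51435 CPM for Mir335, 6368 CPM for Mir296 and 6804 CPM for Mir298, and the share of the 5 loci to 6.47%, by its construction. The log2 ratio of replicate 2 to replicate 1 became 0.16 with TMM and 0.18 with DESeq2 size factors for Mir335, -0.036 and -0.013 for Mir296, and -0.42 and -0.40 for Mir298. These scalings moved the median over detected loci from 0.09 to 0.01 and 0.03. With Mir483 the ratio was -2.07 and -2.04, within its counting interval. Loci lower in replicate 2 past 2-fold numbered 25 with a minimum of 3 reads and 5 with 100, and loci past 1.5-fold in either direction 133 and 24. As shares of the 523 and 274 loci counted, these were 4.78% and 1.82% past 2-fold and 25.4% and 8.76% past 1.5-fold, so the shares changed as well as the counts, and the cause was not tested. A minimum of 3 reads also made Mir675 detected. Leaving out each replicate gave 35.0 to 138 CPM for Mir483, 1.76 to 5.34 CPM for Mir675 and 36945 to 43887 CPM for Mir335. Depth limits Mir675, with 7 reads in replicate 2. No paired analysis was possible because there is only 1 group.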
